A study of Bos taurus and Sus scrofa with 6 samples.

Results

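Macrophages of the prepubertal pig testis were taken from single-cell RNA-sequencing (scRNA-seq) of total testicular cells by their own transcripts. A barcode was kept when AIF1, CD68, CSF1R, CD163, C1QA, C1QB, C1QC, CD14 and MRC1 together held at least 3 unique molecular identifiers (UMIs, 1 per captured RNA molecule) over at least 3 of these 9 genes and VPREB1, a gene of B cell precursors, held 0. It was dropped when at least 2 genes had a UMI among the lymphocyte genes CD3E, CD3D and NKG7, the Sertoli cell genes FSHR, AMH and CLDN11, or the Leydig cell genes CYP17A1, CYP11A1 and STAR. The rule gave 512 macrophages, of which 51 came from pig 1, 76 from pig 2 and 385 from pig 3, out of 9457 called pig barcodes and 27961 called barcodes of pig and cattle together. Because the rule chose the cells by these genes, their levels are given as a description. Where counts of called genes include them, their number is given, and nothing is drawn from it.

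The study profiled testes removed by castration from 3 mixed breed pigs aged 3 months and 3 Holstein cattle aged 4.5 months, with 1 library of total testicular cells per animal. The labels give no treatment and no genotype for any animal, and live cells were loaded for 10x Genomics v2 chemistry. A barcode was called a cell from 696 UMIs in pig 1, 2444 in pig 2 and 3457 in pig 3. Pigs 2 and 3 have different animal tags but share a testis number in the labels, as do cattle 2 and 3, and each library was counted as 1 animal.

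Macrophages are the most common leukocytes of the testis, where they lie in the interstitium beside Leydig cells and around the seminiferous tubules. They depend on the growth factor receptor CSF1R, take up dying cells and debris, present antigen on MHC class II molecules, and make complement C1q and chemokines. Some descend from fetal precursors and others from blood monocytes, and no single gene separates these origins in every species.

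The 9 macrophage genes of the rule lie on 6 chromosomes of Sscrofa11.1 (RefSeq annotation release 106). C1QA (chr6:80586259-80589213), C1QC (chr6:80592591-80597464) and C1QB (chr6:80601680-80606076), which encode the chains of the complement recognition molecule C1q, lie side by side on the plus strand. CSF1R, the receptor of the macrophage growth factors, lies at chr2:151102138-151130311 on the minus strand, CD163, a scavenger receptor for haemoglobin, at chr5:63300200-63334497, and AIF1, a calcium-binding protein of the macrophage cytoskeleton, at chr7:23711752-23731191, the last 2 on the plus strand.

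Levels are given as CPM, the UMIs of a gene per 1000000 UMIs in the summed cells of 1 pig. C1QB stood at 4283, 1948 and 2083 CPM in the macrophages of pigs 1, 2 and 3, and at 16.9, 4.72 and 19.9 CPM in the other cells of the same pigs. CSF1R stood at 484, 513 and 204 CPM against 5.20, 2.67 and 3.84 CPM. CD163 stood at 179, 162 and 70.5 CPM against 0.452, 0.410 and 0.582 CPM. The macrophages of each pig lay above the other cells of every pig for these 3 genes, which the rule fixed in part. The narrowest gaps among the rule's macrophage genes were those of CD14, the lipopolysaccharide co-receptor, with 197, 167 and 52.9 CPM against 50.4, 4.98 and 6.57 CPM, and of MRC1, the mannose receptor, with 89.6, 133 and 18.7 CPM against 1.36, 15.7 and 6.05 CPM. Of the 385 macrophages of pig 3, 311 had a UMI of AIF1, 263 of C1QB, 242 of CSF1R, 115 of CD163 and 50 of MRC1. Other cells of pig 3 had a C1QB UMI in 285 of 1845 barcodes (15.4%), with a median depth of 5925 UMIs, beside 5918 UMIs in macrophages.

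**Figure D1:**
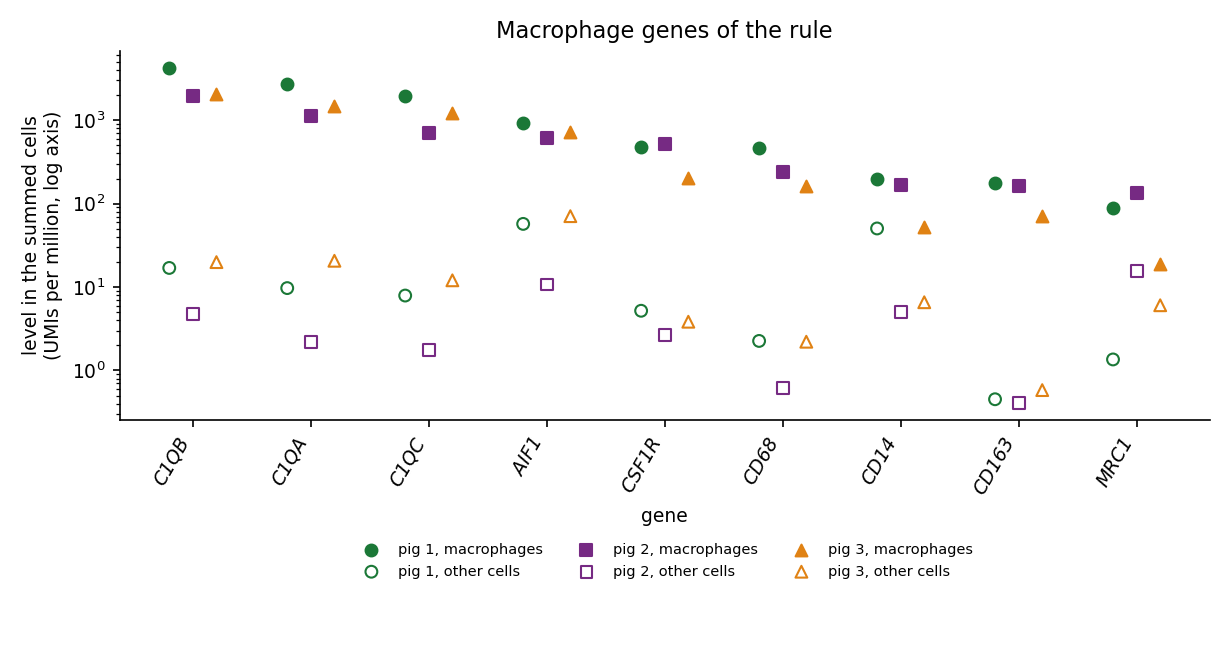
Level of the 9 macrophage genes of the rule in the summed macrophages (filled) and other cells (open) of each pig, in CPM on a log axis. For C1QB the macrophages lie between 1948 and 4283 CPM and the other cells between 4.72 and 19.9 CPM.

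Genes that the rule did not use showed where the label held. TYROBP, the signalling adaptor of many myeloid receptors, stood at 2258, 1798 and 1615 CPM in macrophages and at 104, 42.7 and 104 CPM in other cells. Its level differed with the number of UMIs over the 9 genes of the rule. In pig 3 it stood at 37.4 CPM in the 47 members just inside the rule, with exactly 3 UMIs, at 646 CPM in the 87 members with 4 to 9 UMIs, and at 2923 CPM in the 251 members with 10 or more. The 267 other cells of pig 3 just outside the rule, with 2 UMIs, had 51.7 CPM. The data therefore went against the label for the 47 members of pig 3 at the threshold, which had TYROBP near the 33.1 CPM of the 813 other cells without any UMI of the rule, LYZ at 1.21 CPM and the germ cell gene COX8C at 904 CPM. The 47 members held 829544 of the 3477109 macrophage UMIs of pig 3, and the 87 members with 4 to 9 UMIs held 946497. COX8C was also high in these 87 members, at 871 CPM. It stood at 200 CPM in the 251 members with 10 or more and at 721 CPM in the 813 other cells. In pig 2 the 6 members with exactly 3 UMIs had 170 CPM of TYROBP, which rests on 13 UMIs. Its other cells had 187 CPM with 2 UMIs of the rule and 19.6 CPM with none. These 6 members had LYZ at 0 CPM and COX8C at 719 CPM, and held 76521 of the 352698 macrophage UMIs of pig 2. Pig 1 had no such member. In the other direction, 232 other cells of pig 3 held 3 or more UMIs over fewer than 3 genes and had 644 CPM of TYROBP, so some barcodes with myeloid transcripts stayed outside.

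**Figure D2:**
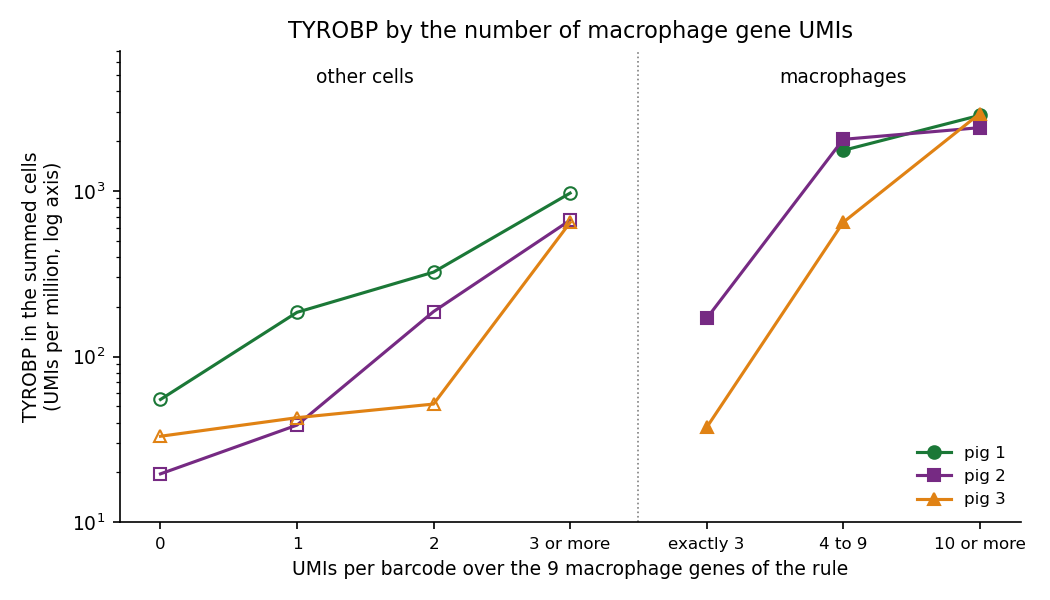
TYROBP, a gene outside the rule, in CPM (log axis) of barcodes summed by their UMIs over the 9 macrophage genes of the rule, for other cells (open, left) and macrophages (filled, right) of each pig. At 10 or more UMIs the 3 pigs lie between 2405 and 2923 CPM, whereas members of pig 3 with exactly 3 UMIs lie at 37.4 CPM.

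Pig 3 stood apart from the other pigs. Macrophages made up 1.57% of called barcodes in pig 1 (exact 95% binomial interval 1.17% to 2.06%), 1.93% in pig 2 (1.53% to 2.41%) and 16.9% in pig 3 (15.4% to 18.5%). The intervals cover counting error only. Depth differed as well: macrophages had a median of 895, 3352 and 5918 UMIs and 437, 1282 and 1758 genes in pigs 1, 2 and 3, and their summed UMIs were 55805, 352698 and 3477109. When each barcode was thinned to 696 UMIs, the shares were 1.42%, 0.763% and 6.68%, so pig 3 remained the highest. The share of pig 3 was 10.9% under a stricter rule of 5 UMIs over 4 genes, 11.02% with at least 10 rule UMIs and 8.59% when barcodes from 500 UMIs were called. The pig mean was 6.80% ± 8.75 (SD, n = 3), against 5.02% ± 3.39 (SD, n = 3) for cattle barcodes chosen by the same genes. A two-sided exact permutation test over animals gave p = 1. With 3 against 3 it cannot give less than 0.1, so it cannot decide whether the species differed. When barcodes from 500 UMIs were called, the means ran the other way, at 3.73% in pig and 5.40% in cattle. No member barcode was shared between pig libraries, and 20, 9 and 9 called barcodes were shared between pigs 1 and 2, 1 and 3, and 2 and 3.

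To find which other genes marked these cells, macrophages were summed per pig and compared with the 8893 other cells of the same pigs. Of 15236 genes tested, 355 were higher in macrophages (2.33%) and 7 were lower (0.0459%) by the edgeR quasi-likelihood test at a Benjamini-Hochberg adjusted p under 0.05. Of the 355, 8 were genes of the rule, 54 had no symbol, and 296 were higher in all 3 pigs. On simulated counts far more calls of this comparison were false than its threshold allows, so some of the 355 may be false. With the pig as a replicate block, 727 were higher (4.77%) and 260 lower (1.71%), and all 355 were among the 727. The count of 355 rested most on pig 1, without which 164 genes were higher. It was 398 without pig 3, and 593, with 88 lower, when only members with at least 10 UMIs over the rule's genes were used. With 3 pigs, genes at low levels in the 55805 macrophage UMIs of pig 1 could not be compared well, since 3 UMIs there already make 53.8 CPM.

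Among genes outside the rule with at least 50 CPM and the same direction in every pig, the largest differences included receptors for chemoattractants and microbes. LYZ, which encodes lysozyme, stood at 663, 1429 and 955 CPM in macrophages against 14.2, 8.67 and 25.2 CPM (log2 fold change 5.92 with an SE of 0.55, edgeR adjusted p = 7.02e-05). C5AR1, the receptor of the complement fragment C5a, stood at 125, 209.8 and 48.9 CPM against 2.49, 1.18 and 1.57 CPM (6.12 ± 0.62, adjusted p = 0.000102). Values after ± are SE here and below. CX3CR1, the fractalkine receptor, stood at 35.8, 128 and 38.3 CPM against 0.226, 0.564 and 0.989 CPM (6.64 ± 0.66, adjusted p = 9.77e-05). None of these groups overlapped. The scavenger receptor MSR1 (5.42 ± 0.53), the bacterial lipopeptide receptor TLR2 (5.14 ± 0.56), the neutrophil chemokine CXCL8 (5.70 ± 0.58) and the secreted phospholipase PLA2G2D (5.70 ± 1.02) were higher in all 3 pigs and passed the same edgeR test. C4BPA, a chain of the complement inhibitor C4b-binding protein, stood at 663, 496 and 235 CPM against 6.78, 2.15 and 6.05 CPM. CCL11, the eosinophil chemokine eotaxin, stood at 1667, 663 and 145 CPM against 11.5, 15.1 and 8.73 CPM (5.87 ± 0.71, edgeR adjusted p = 0.000364). CXCL11 had the largest fold change (9.90 ± 1.21), yet 92 of its 95 UMIs in pig 2 came from 1 barcode. These 10 genes passed the test when any 1 pig was left out.

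Upstream sequences are shown for the 2 of these genes, LYZ and C5AR1, and the 1 gene of the rule, C1QC, whose 250 bases before the RefSeq gene start in Sscrofa11.1 hold GAGGAAGT or its reverse complement ACTTCCTC. These letters, chosen after the results were known, hold the GGAA core bound by PU.1, the myeloid factor encoded by SPI1. They are set in capitals, all 3 genes lie on the plus strand, and the windows are chr6:80592341-80592590 (C1QC), chr5:33612343-33612592 (LYZ) and chr6:53096912-53097161 (C5AR1).
C1QC: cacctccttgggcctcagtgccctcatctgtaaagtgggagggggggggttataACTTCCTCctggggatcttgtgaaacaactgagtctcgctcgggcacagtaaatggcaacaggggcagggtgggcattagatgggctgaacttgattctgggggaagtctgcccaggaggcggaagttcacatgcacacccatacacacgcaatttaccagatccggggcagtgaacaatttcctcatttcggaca
LYZ: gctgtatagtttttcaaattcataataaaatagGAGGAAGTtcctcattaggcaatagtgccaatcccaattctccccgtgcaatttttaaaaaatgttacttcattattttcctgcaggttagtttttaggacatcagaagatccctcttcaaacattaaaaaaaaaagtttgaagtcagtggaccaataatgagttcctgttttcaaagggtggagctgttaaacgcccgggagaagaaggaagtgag
C5AR1: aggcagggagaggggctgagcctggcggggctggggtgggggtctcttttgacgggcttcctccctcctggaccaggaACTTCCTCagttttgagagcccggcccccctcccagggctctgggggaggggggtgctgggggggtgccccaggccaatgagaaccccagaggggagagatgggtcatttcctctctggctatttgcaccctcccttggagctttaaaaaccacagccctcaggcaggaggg
The letters were found on either strand in 320 of the 19509 windows of protein-coding genes (1.64%), in 206 of the 12093 windows of genes tested (1.70%), and in 18 of the 279 windows of genes that were higher in macrophages and outside the rule (6.45%). GCGGAAGT, a related sequence that other ETS factors bind and that shares the last 6 letters, was found in 1.65% of windows of genes tested and in 1 of the same 279 windows (0.358%). Among the 9 macrophage genes of the rule each sequence was found in 1 window, and for both this was C1QC, where GCGGAAGT is left in lower case. Because GAGGAAGT was chosen after the results were known, these shares are a description and not a test of enrichment. A match describes the letters in the window and is not evidence of binding. The gene SPI1 itself stood at 233, 292 and 349 CPM in macrophages against 14.2, 9.90 and 27.6 CPM (log2 fold change 4.05 ± 0.49, edgeR adjusted p = 0.000364).

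**Figure D3:**
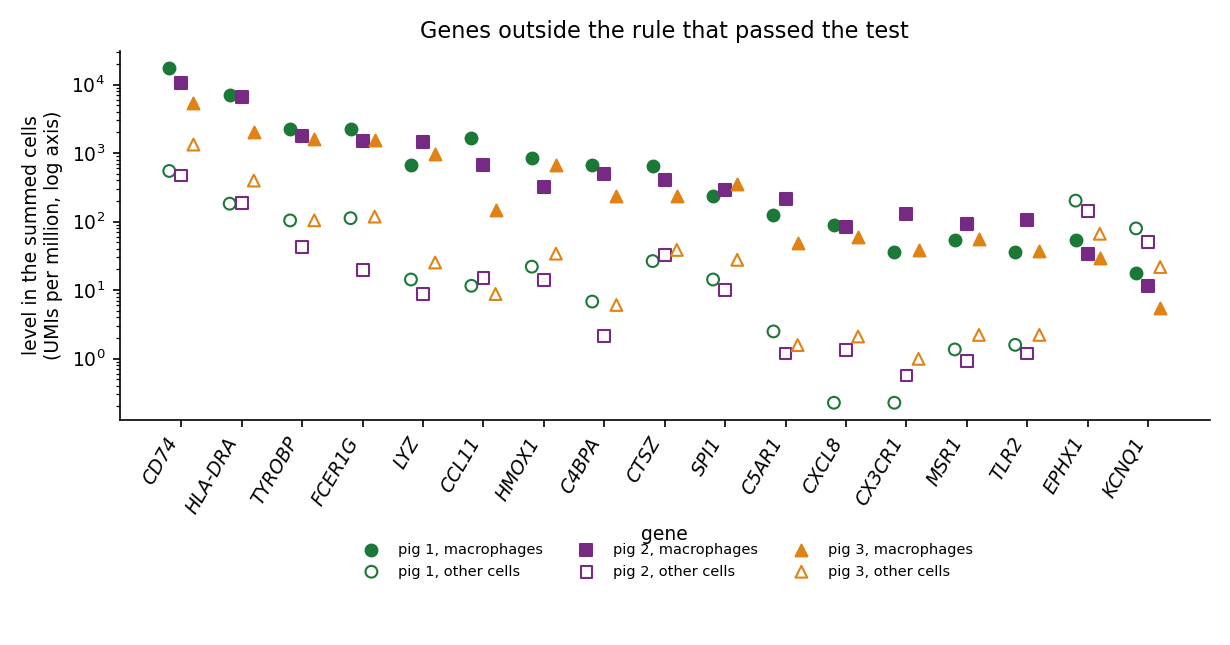
Genes outside the rule that passed the edgeR test, in CPM (log axis) of the summed macrophages (filled) and other cells (open) of each pig. The macrophages lie above the other cells in all 3 pigs for the first 15 genes, and below them for EPHX1 and KCNQ1.

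Of macrophage markers outside the rule, 12 of 20 tested were higher and none was lower by edgeR (8 of the 20 did not pass in either direction), with a median log2 fold change of 3.45 beside -0.22 over all genes tested. With the pig as a block 15 of the 20 were higher and none was lower. Of all genes tested, 2.33% were higher without the block and 4.77% with it. FCER1G, the shared signalling chain of Fc receptors, stood at 2222, 1497 and 1552 CPM against 112, 19.8 and 118 CPM (4.26 ± 0.60, edgeR adjusted p = 0.00114). LAPTM5, a lysosomal membrane protein of blood cells, stood at 519.7, 473 and 253 CPM against 34.3, 21.3 and 49.9 CPM. Both genes separated macrophages from other cells in every pig. TIMD4, a receptor for phosphatidylserine on dying cells, was low but close in the 3 pigs, with 17.9, 14.2 and 15.5 CPM, which rest on 1, 5 and 54 UMIs. MARCO, a scavenger receptor for bacteria and particles, had 0 UMIs in pig 1, and 87.9 and 15.2 CPM in pigs 2 and 3.

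Of genes for antigen presentation and innate sensing, 11 of 15 and 10 of 13 tested were higher and none was lower. Of all genes tested, 2.33% were higher. With the pig as a block the counts were 13 and 11, beside 4.77% of all genes tested. Without pig 3 the counts were 13 and 7. CD74, the invariant chain that escorts MHC class II molecules, stood at 17722, 10539 and 5324 CPM against 547, 469 and 1328 CPM (log2 fold change 3.69 ± 0.49, edgeR adjusted p = 0.000818). HLA-DRA, the name in the gene table for an MHC class II alpha chain of the pig, stood at 7149.9, 6569 and 2057 CPM against 182, 189 and 396 CPM (4.21 ± 0.50, adjusted p = 0.000347). SLA-DQB1, a class II beta chain, stood at 5824, 5515 and 1875 CPM against 154, 172 and 422 CPM. Pig 3 was the lowest of the 3 pigs for all 3 genes in macrophages and the highest in other cells. B2M, the light chain of class I molecules, rose less (1.82 ± 0.44, edgeR adjusted p = 0.0420), and it lost its call without pig 1 (1.33, adjusted p = 0.539) or pig 2 (1.87, 0.0708). Among sensors, TLR4, the lipopolysaccharide receptor, stood at 35.8, 45.4 and 24.2 CPM against 0.452, 0.923 and 0.582 CPM, and its partner LY96 at 35.8, 204 and 121 CPM against 8.59, 13.0 and 22.9 CPM. Both passed the edgeR test (adjusted p = 0.000119 and 0.00408).

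Of chemokines and cytokines, 9 of 18 tested genes were higher and none was lower, and 14 were higher with the pig as a block. CXCL16, a membrane-bound chemokine, stood at 358, 201 and 60.1 CPM against 9.26, 10.3 and 21.8 CPM (3.58 ± 0.57, edgeR adjusted p = 0.00250). CCL2, the monocyte attractant, stood at 502, 181 and 174 CPM against 17.6, 85.7 and 38.2 CPM. Both missed the threshold without pig 1 (edgeR adjusted p = 0.0639 for CXCL16 and 0.240 for CCL2). CXCL10 had the highest mean level in the list, at 860.1, 635 and 446 CPM against 18.1, 30.01 and 226 CPM, and it passed with the pig as a block (edgeR adjusted p = 4.85e-19) but not without (0.0852). The anti-inflammatory cytokine IL10 had 0, 17 and 265 UMIs in the macrophages of pigs 1, 2 and 3 and passed the test, and the cytokine OSM was the only 1 of 15 growth factors tested that was higher. With the block, 2 growth factors were higher and 2 lower. Over all genes tested 2.33% were higher without the block, and 4.77% were higher and 1.71% lower with it, so these counts are too small to set growth factors apart. Of their receptors, 7 of 13 were higher and none was lower, and 10 were higher with the block. Among the 7 were the interleukin-10 receptor IL10RA with 89.6, 108 and 75.6 CPM against 2.71, 3.69 and 7.91 CPM, and the tumour necrosis factor receptor TNFRSF1B with 143, 128 and 125 CPM against 8.13, 6.26 and 18.3 CPM. The spread of both between pigs was small beside the difference.

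Of complement genes beyond C1q, 4 of 12 were higher and none was lower, beside 2.33% and 0.0459% of all genes tested. With the block 8 were higher and 2 lower, beside 4.77% and 1.71%. Those 4 were C5AR1, the complement receptor VSIG4, properdin (CFP), which stabilises the alternative pathway convertase, and factor D (CFD), the protease that starts it. CFD missed the threshold without pig 1 or pig 2 (edgeR adjusted p = 0.168 and 0.199). CFP stood at 108, 42.5 and 49.5 CPM against 3.16, 1.08 and 5.06 CPM (4.12 ± 0.61, edgeR adjusted p = 0.00158). C4A, a component of the classical pathway, pointed the other way, at 197, 264 and 146 CPM against 600.4, 848 and 347 CPM (-1.66 ± 0.42, edgeR adjusted p = 0.0577, and 0.000102 with the block). Clusterin (CLU), also abundant in Sertoli cells, stood at 6039, 2847 and 735 CPM against 10464, 13056 and 2180.1 CPM and passed with the block alone (edgeR adjusted p = 8.18e-05).

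Of lysosomal genes, 8 of 22 tested were higher, and 15 with the block, beside 2.33% and 4.77% of all genes tested. None of the 22 was lower. The cathepsin CTSZ stood at 645, 408 and 235 CPM against 26.4, 32.1 and 38.5 CPM (3.55 ± 0.42, edgeR adjusted p = 0.000347). CTSS, the cathepsin that trims the invariant chain, was the most abundant of the list, at 2813, 1174 and 755 CPM against 415, 69.8 and 285 CPM, and passed with the block alone (edgeR adjusted p = 2.39e-12, and 0.0566 without). Among genes with a symbol, mitochondrial and ribosomal protein genes aside, the cysteine protease inhibitor CST3 had the highest mean level in pig macrophages. It stood at 36323, 23788 and 7907 CPM against 6769, 5069.6 and 3300.5 CPM (1.98 ± 0.45, edgeR adjusted p = 0.0298). Without pig 1 or pig 2 its log2 fold change was 1.93 and 2.01, while the call was lost (edgeR adjusted p = 0.230 and 0.0611).

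For iron and haem, 3 of 12 genes were higher and none was lower, and 4 were higher with the block. HMOX1, which breaks down haem, stood at 842, 323 and 664 CPM against 21.9, 14.0 and 33.9 CPM (4.59 ± 0.51, edgeR adjusted p = 0.000220). The iron exporter SLC40A1 and the endosomal iron transporter SLC11A1 were the other 2 that passed, SLC40A1 not without pig 1 or pig 2 (edgeR adjusted p = 0.148 and 0.206). Of lipid genes, 3 of 17 were higher, with the block 6 were higher and 1 lower, and 5 were higher without pig 3. Those without the block were the mitochondrial translocator TSPO at 358, 326 and 398 CPM against 30.1, 37.7 and 80.1 CPM, the acid phosphatase ACP5, and the lipid receptor TREM2, which rests on 3, 8 and 10 UMIs. ACP5 missed the threshold without pig 1 (edgeR adjusted p = 0.0669). APOE, the apolipoprotein that carries lipid between cells, stood at 1487, 1489 and 167 CPM against 890.3, 80.3 and 154 CPM and passed with the block alone (edgeR adjusted p = 0.00159, and 0.737 without). Of genes for the uptake of dying cells, TIMD4 and the leukocyte phosphatase PTPRC were higher among 14 tested, and 5 were with the block. PTPRC missed the threshold without pig 1 (edgeR adjusted p = 0.0568). Transcription factors were higher in 4 of 18 (SPI1, IRF5, RUNX1 and TFEC) and in 9 with the block. No gene of these 4 groups was lower without the block. Beside these counts, 2.33% of all genes tested were higher without the block and 4.77% with it.

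FOLR1, a folate receptor gene outside the lists, was named after its level had been seen. It stood at 2329.5, 1148 and 1859.6 CPM in macrophages and 52.0, 24.6 and 66.2 CPM in other cells (5.10 ± 0.51, edgeR adjusted p = 9.77e-05). FOLR2, a related folate receptor gene, stood at 53.8, 31.2 and 4.60 CPM in macrophages and 17.4, 31.8 and 8.79 CPM in other cells. The assignment of reads between FOLR1 and FOLR2 was not tested.

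**Figure D4:**
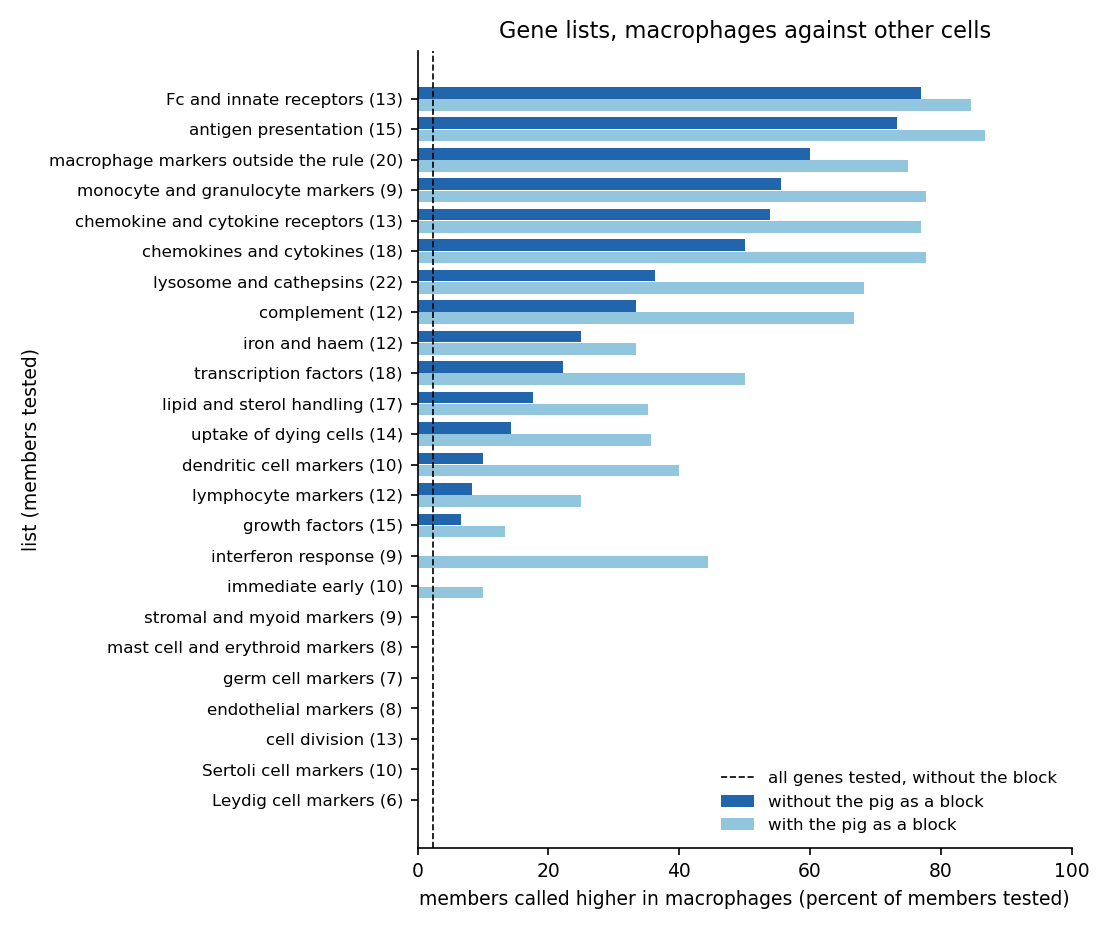
Members of each gene list that were higher in macrophages than in other cells, as a percent of the members tested (number in brackets), by the edgeR test without (dark) and with (light) the pig as a block. The dashed line marks the 2.33% of all genes tested that were higher without the block, and antigen presentation, with 11 of 15, and Fc and innate receptors, with 10 of 13, are among the highest.

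Markers of other cells gave a mixed picture. Of monocyte and granulocyte markers 5 of 9 were higher, namely LYZ, CCR2, CSF3R, S100A12 and S100A9. With the pig as a block 7 were higher, and without pig 3 the count was 3. S100A12 missed the threshold without pig 1 (edgeR adjusted p = 0.0639) or pig 3 (0.621). Of dendritic cell markers PLD4 alone passed among 10, while 4 did with the block and 2 without pig 3. Of lymphocyte markers CCL5 alone passed among 12, at 663, 397 and 135 CPM against 18.3, 22.1 and 63.5 CPM (3.29 ± 0.59, edgeR adjusted p = 0.00570), with the block 3 were higher and 3 lower, and 2 were higher without pig 3. Without pig 1 neither PLD4 nor CCL5 passed (edgeR adjusted p = 0.233 and 0.122). Over all genes tested 2.33% were higher without the block, and 4.77% were higher and 1.71% lower with it. The single calls without the block therefore do not set the dendritic or lymphocyte list apart. NKG7, a cytotoxic granule gene that the rule used only together with CD3E or CD3D, stood at 108, 111 and 97.2 CPM in macrophages and at 5.88, 2.87 and 17.6 CPM in other cells. Because the rule used NKG7, nothing is drawn from its level. In barcodes below the minimum for a cell, CCL5 stood at 30.1, 150 and 612 CPM in pigs 1, 2 and 3. In pig 3 this was above the 135 CPM of its macrophages. Whether the CCL5 RNA came from the macrophages themselves was not tested.

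No gene on the lists of Sertoli, Leydig, germ, stromal, endothelial, or mast and erythroid cell markers was higher or lower without the block. Outside these lists, MS4A2, a gene also known from mast cells, was higher. With the block, 10 of 10 Sertoli cell markers and 3 of 6 Leydig cell markers were lower, beside 1.71% of all genes tested, in cells from which the rule had dropped barcodes with other Sertoli and Leydig cell genes. Their RNA was present in the macrophages all the same. The summed level of the 10 Sertoli cell markers was 10895, 7051 and 1678 CPM in macrophages and 17938, 29298 and 4402 CPM in other cells, with CLU the most abundant. The 6 Leydig cell markers summed to 1953, 451 and 329 CPM against 7551, 1264 and 1269.9 CPM, and the 8 germ cell markers to 448, 437 and 982 CPM against 1179.8, 499.6 and 1411 CPM, with COX8C the most abundant. At least 2 germ cell markers were found in 3, 4 and 90 of the macrophages of pigs 1, 2 and 3, and without these cells 751 genes were higher and 385 lower. The part of such RNA in the results was not tested.

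Cell division genes were neither higher nor lower in 13 tested without the block, 1 was lower with it and 3 were lower without pig 3. With 0.0459% of all genes lower without the block, and 1.71% with it, a count of 0 or 1 does not set the list apart. The 3 lower without pig 3 were a larger share of the list than the 73 of 14344 genes lower in that fit. UBE2C, which drives mitotic exit, stood at 17.9, 8.51 and 119.6 CPM in macrophages and 73.4, 59.7 and 151 CPM in other cells. No interferon response gene passed among 9, whereas 4 did with the block and 4 without pig 3. Over all genes, 4.77% were higher with the block and 398 of 14344 without pig 3. IFI6 stood at 2849, 1619 and 3942 CPM against 1598, 614 and 2727 CPM, and ISG15, a ubiquitin-like protein induced by interferon, at 179, 340.2 and 2050.3 CPM against 24.6, 52.5 and 1586 CPM. Pig 3 was highest in both kinds of cell for both genes. Of 10 immediate early genes, induced within minutes when tissue is digested, none passed without the block and 1 with it. With 2.33% of all genes higher without the block and 4.77% with it, these counts do not set the list apart. FOS stood at 1487, 3363 and 1047 CPM in macrophages and 534, 2721 and 1016 CPM in other cells.

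Of the 7 lower genes, 2 were genes of the rule and 3 had no symbol. The other 2 were EPHX1, an epoxide hydrolase, with 53.8, 34.0 and 29.0 CPM against 202, 142 and 66.3 CPM (-2.08 ± 0.51, edgeR adjusted p = 0.0465), and the potassium channel gene KCNQ1, with 17.9, 11.3 and 5.46 CPM against 79.3, 50.3 and 21.6 CPM (-2.76 ± 0.67, adjusted p = 0.0432). Both lost their call without pig 1 (edgeR adjusted p = 0.223 and 0.202), EPHX1 also without pig 2 (0.138) and KCNQ1 also without pig 3 (0.0927).

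Macrophages varied in C1q within each pig. Members with no UMI of C1QA, C1QB or C1QC numbered 3 of 51 in pig 1, 32 of 76 in pig 2 and 65 of 385 in pig 3, and those with 5 or more numbered 34, 30 and 182. The cells were divided by genes of the rule after their values had been seen, so the following levels are a description. In pig 3 the 65 members without C1q UMIs had the monocyte and neutrophil gene S100A12 at 729 CPM, against 22.8 CPM in members with 5 or more. It was found in 41 of the 385 macrophages, and 10 of them held 82.8% of its 523 UMIs. LYZ stood at 2429 CPM against 1299 CPM in the same cells, and CCR2, the receptor that brings monocytes out of the blood, at 84.4 CPM against 28.7 CPM. In pig 2 LYZ ran the other way, at 1569 CPM without C1q UMIs and 1888 CPM with 5 or more, while CCR2 stood at 139 CPM against 95.3 CPM. S100A12 was found in 1 macrophage of pig 2, which held 13 UMIs and none of C1q, so it gives no level for that pig.

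Other genes lay on the side of the C1q-rich members. Pig 1 had 2478 UMIs in its 3 members without C1q, too few for a level, and is left out of the comparisons of C4BPA, HMOX1 and CCL5. C4BPA stood at 1455 and 490 CPM in members with 5 or more C1q UMIs of pigs 2 and 3, and at 26.0 and 110 CPM in those with none. HMOX1 stood at 779 CPM against 173 CPM in pig 2 and at 1249 CPM against 598 CPM in pig 3. CCL5 stood at 1169 and 270 CPM in members with 5 or more, and at 43.3 and 130 CPM in those with none. CD209, a lectin of tissue macrophages and dendritic cells, was found in 4 members each of pigs 1 and 2, at 349 and 450 CPM in the members with 5 or more C1q UMIs, and in pig 2 it had 0 UMIs in the other members. CD74 and HLA-DRA were present on both sides, with CD74 at 13337 CPM in members with 5 or more and 15423 CPM in those with none in pig 2, and 7378 CPM and 9274 CPM in pig 3.

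Members of pig 3 with 1 to 4 C1q UMIs were the deepest, with a median of 7131 UMIs, and the least marked. TYROBP stood at 601 CPM in these 138 cells, against 2470 CPM with 5 or more and 3112 CPM with none, and COX8C stood at 849 CPM against 297 and 118 CPM. They supplied 1726125 of the 3477109 macrophage UMIs of pig 3, so the summed levels of that pig are lower for genes such as CD74 than in its C1q-rich members.

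The gene that differed most between pigs was CXCL13, the chemokine that attracts B cells. Macrophages held 627, 119 and 13394 CPM in pigs 1, 2 and 3, and other cells 0.452, 2.26 and 291 CPM. The level in pig 3 was 112 times that in pig 2. Macrophages lay above the other cells in each pig, and the difference passed with the pig as a block (log2 fold change 6.38, edgeR adjusted p = 1.33e-46) but not without (5.69 ± 1.93, adjusted p = 0.230).

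In pig 3, 272 of 385 macrophages had a UMI of CXCL13 (70.6%), against 619 of 1845 other cells (33.6%). With each barcode thinned to 3458 UMIs these shares were 60.8% and 17.6%. The gene was unevenly spread, since 120 macrophages held at least 100 UMIs, with a maximum of 1062, and the 10 highest held 18.4% of all 46571. Only 7 other cells held as many, with a maximum of 2116. By C1q, the level was 27364 CPM in members with 5 or more UMIs, 2737 CPM with 1 to 4 and 11849 CPM with none. In pigs 1 and 2 the gene was found in 6 of 51 and 6 of 76 macrophages, with maxima of 27 and 18 UMIs. These shares were not matched for depth between pigs.

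The genes with the next largest ratios between pigs, among those with at least 100 CPM in 1 pig, fell into both directions. JCHAIN, which joins antibody units, stood at 0, 14.2 and 607 CPM in macrophages and HBB, a haemoglobin chain, at 17.9, 11.3 and 420.2 CPM, but in pig 3 the other cells held as much (767 and 402 CPM). Neither differed between macrophages and other cells by the edgeR test (adjusted p = 1 for both). CCL24, an eosinophil attractant, ran the other way, with 394, 62.4 and 14.4 CPM against 7.23, 1.85 and 8.90 CPM (4.01 ± 0.96, edgeR adjusted p = 0.0390, and 0.3796 without pig 1). CXCL11 stood at 53.8, 269 and 9.78 CPM, and the stress-induced gene NUPR1 at 502, 22.7 and 48.3 CPM. CD209 and SLAMF9 were named after their values had been seen. CD209, with too few UMIs in its highest pig to enter that ranking, had 14, 52 and 0 UMIs, and the 0 of pig 3 allows up to 0.863 CPM (3 UMIs of its sum). SLAMF9, a receptor of myeloid cells, was the opposite, with 0, 3 and 601 UMIs, but a count of 0 allows up to 53.8 CPM in pig 1. With 1 library per pig, animal and library cannot be told apart.

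**Figure D5:**
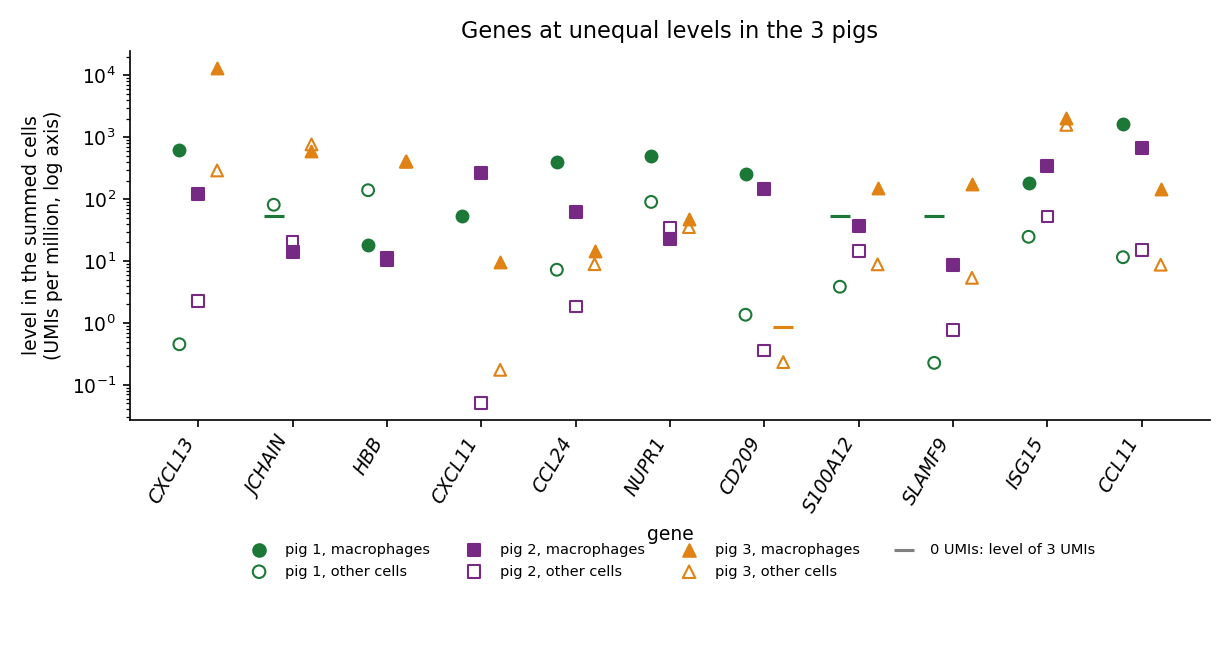
Genes with unequal levels in the 3 pigs, in CPM (log axis) of the summed macrophages (filled) and other cells (open). A bar marks macrophages with 0 UMIs, drawn at the level of 3 UMIs, and open symbols with 0 UMIs are not drawn. CXCL13 lies at 13394 CPM in pig 3 and at 119 CPM in pig 2, while JCHAIN and HBB are as high in the other cells of pig 3 as in its macrophages.

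To ask whether the macrophage profile differed between species, the difference between macrophages and other cells was compared with that in cattle by an interaction test. VPREB1 is not listed in the cattle gene table used here, and the 977 cattle members (79, 352 and 546) were chosen without it. Of 12754 genes tested, 7 had a larger difference in pig (0.0549%) and 6 in cattle (0.047%) by edgeR at an adjusted p under 0.05, beside 729 at an unadjusted p under 0.05. With the animal as a replicate block these counts were 153 (1.2%) and 97 (0.761%), without cattle 3 they were 2 and 2, and without cattle 2 none of the 6 remained. Among those larger in pig were the lymphocyte GTPase genes GIMAP4 and GIMAP8, CCL5, the activating adaptor HCST, ALDH3B1 and FAM105A, where GIMAP8 and ALDH3B1 were named after their values had been seen. Larger in cattle were CLEC12A, GDA, the folate receptor FOLR2, the high-affinity Fc receptor FCGR1A, the bactericidal protein BPI and CFD. GIMAP4 stood at 161, 218 and 237 CPM in pig macrophages and 44.2, 26.5 and 7.56 CPM in cattle macrophages, while other cells held 11.07, 5.75 and 27.7 CPM in pig and 38.3, 57.9 and 83.5 CPM in cattle (log2 interaction 5.75 ± 0.84, edgeR adjusted p = 0.00593). CFD stood at 556, 550.0 and 207 CPM in pig macrophages and 2727, 2443 and 720.0 CPM in cattle macrophages (-3.74 ± 0.68, adjusted p = 0.0287). GIMAP4 passed when any 1 animal was left out, whereas CFD missed the threshold without pig 1, pig 3 or any 1 of the cattle (adjusted p from 0.0548 to 0.365). The macrophage groups of the species did not overlap for either gene.

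A direct comparison of pig with cattle macrophages gave 2439 of 10693 genes higher in pig (22.8%) and 2044 higher in cattle (19.1%) by edgeR. Without pig 3 the counts were 1404 and 701, and without cattle 3 they were 1376 and 886. The balance between the directions also moved, to 3428 and 1612 without a filter on low counts and to 3421 and 1534 with barcodes from 500 UMIs. Species, breed, age, genome and gene table cannot be told apart here. Of the 10 named genes with the largest folds in each direction, 8 had 0 UMIs in the macrophages of the other species. CXCL13 and MS4A2, a chain of the high-affinity immunoglobulin E receptor, had 0 UMIs in every cattle cell, and GNG5, HMGN1, HNRNPF and NDUFA4 had 0 in every pig cell. The ferritin gene FTH1, with 26473, 24110 and 10947 CPM in cattle macrophages, had 1 UMI in those of pig, where FTL held 7903, 4817 and 4572 CPM. Within the pigs, where the gene table is shared, MS4A2 stood at 71.7, 379.9 and 66.7 CPM in macrophages and 9.94, 6.62 and 14.0 CPM in other cells (4.05 ± 0.64, edgeR adjusted p = 0.00234).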

How the data were processed

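The authors aligned the reads to Sscrofa11.1 (pig) or ARS-UCD1.2 (cattle) with Cell Ranger and deposited raw UMI counts per gene and barcode, without normalization. The submitters' processing notes give version 2.1.0, and the headers of the pig matrices give 3.0.2. Every barcode in the pig tables has 500 UMIs or more, and 15391 of their 22694 genes have a symbol.

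The minimum for a cell followed Cell Ranger 2, as the UMI total at percentile 99 among the 3000 deepest barcodes, divided by 10, and members were chosen by the rule stated above. Barcodes with the macrophage genes that were dropped for other markers (2, 3 and 47) entered neither sum. No doublets were removed, and leaving out those with the highest scores of Scrublet (scanpy 1.11.5) was an alternative. Counts were summed per animal. Genes with at least 10 counts were tested with edgeR 4.0.16 (quasi-likelihood, TMM, Benjamini-Hochberg at 0.05) in R 4.3.3, and DESeq2 1.42.0 was an alternative. SLA-DRA, SLA-DOA and SLA-DOB of the lists were read under the names HLA-DRA, HLA-DOA and HLA-DOB. The macrophage and other sums of a pig come from 1 animal and are paired. Their deviations correlated at 0.253, 0.308 and 0.392 within pigs 1, 2 and 3. The fits without the block did not use this pairing, and those with the block did. Without the block the p-values measure the spread between the 3 animals of each species within each kind of cell.

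On simulated counts the test without the block recovered a minority of changed genes, and almost none by the interaction with species, and for macrophages against other cells, the comparison behind the 355 genes, far more of its calls were false than its threshold allows.

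Named genes were those of the rule, up to 4 members per list with the highest mean CPM and any member behind a count. Also named were the 12 highest genes with a symbol, apart from mitochondrial and ribosomal protein genes. So were the 10 called genes with the largest change in each direction at 50 CPM or more. The 6 with the largest ratio between pigs were added. A gene that passed the interaction test is not reported here. Members and lists were chosen with earlier results of these data known.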

Additional observations from a re-analysis of the deposited data

Results flagged for a closer look

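The differences between macrophages and other cells that differed between pig and cattle by the edgeR interaction test, among called genes at high enough levels to be named, are given on the log2 scale as pig minus cattle. They were 5.75 for GIMAP4, 5.28 for CCL5, 4.86 for HCST and 2.80 for FAM105A, all larger in pig. CCL5 missed the threshold without pig 1 or pig 2 (edgeR adjusted p = 0.103 and 0.0570), HCST without cattle 2 or cattle 3 (0.0579 and 0.218), and FAM105A without pig 1, pig 2, cattle 2 or cattle 3 (0.0889 to 0.360), while GIMAP4 passed in each case. The other differences were -6.59 for CLEC12A, -6.31 for GDA, -6.20 for FOLR2, -5.27 for FCGR1A, -4.33 for BPI and -3.74 for CFD, all larger in cattle. In pig macrophages CLEC12A, GDA and BPI rest on 7, 3 and 15 UMIs, beside 399, 81 and 120 in cattle macrophages. GDA and BPI had 0 UMIs in the macrophages of pig 1, where 3 UMIs make 53.8 CPM. For CCL5 the macrophages of the species overlapped, at 663, 397 and 135 CPM in pig and 383, 200.3 and 48.2 CPM in cattle, while other cells held 18.3, 22.1 and 63.5 CPM in pig and 642, 698 and 596 CPM in cattle. For FOLR2 the macrophages lay apart, at 53.8, 31.2 and 4.60 CPM in pig and 929, 450.2 and 203 CPM in cattle. Other cells held 17.4, 31.8 and 8.79 CPM of FOLR2 in pig and 10.9, 4.81 and 7.83 CPM in cattle. FOLR1 was not compared between species, and the assignment of reads between FOLR1 and FOLR2 was not tested. For FCGR1A the cattle macrophages held 73.7, 147 and 50.7 CPM and the pig macrophages 35.8, 87.9 and 29.0 CPM, so the macrophage levels overlapped and the other cells did not (27.1, 15.2 and 18.6 CPM in pig, 0.884, 0.736 and 1.005 CPM in cattle). Without cattle 2 none of the 6 genes larger in cattle passed. BPI, GDA and CFD also missed the threshold without pig 1, pig 3, cattle 1 or cattle 3, and CLEC12A without pig 3, cattle 1 or cattle 3 (edgeR adjusted p from 0.0548 to 0.371), so of the 6 only FOLR2 and FCGR1A depended on cattle 2 alone. Differences in gene annotation between the species were not tested.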

How the results depend on the processing

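The 355 genes higher in macrophages became 751 with members carrying germ cell markers left out and 593 with members of at least 10 rule UMIs, a limit chosen after the data were seen, and these calls held all 355 and 353 of the 355. Under the 9 other settings apart from the block and leaving out a pig, the count lay between 331 and 522. Leaving out 1 pig gave 164 to 398, with the low value without pig 1. The 7 lower genes became 4 with DESeq2 size factors, 4 with library size alone, 23 with the DESeq2 Wald test, 45 without a filter, 3 with filterByExpr, 22 at 500 UMIs per barcode, 21 under a stricter macrophage rule, 385 without members with germ cell markers, 88 at 10 rule UMIs, 36 against cells without lymphocyte or VPREB1 UMIs, and 2 to 73 with 1 pig left out.

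With the pig as a replicate block, 727 genes were higher and 260 lower in macrophages, and the interaction with species gave 153 genes larger in pig and 97 larger in cattle. All genes called without the block kept their call.

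Of pig against cattle macrophages, 1183 genes were higher in pig and 706 in cattle with the DESeq2 Wald test, and 821 and 655 with filterByExpr. The stricter rule gave 2026 higher in pig and 1352 in cattle. The balance of 2439 to 2044 became 3031 to 1827 with DESeq2 size factors, 3017 to 1707 with library size alone, 3428 to 1612 without a filter and 3421 to 1534 at 500 UMIs per barcode. Leaving out 1 animal gave 1376 to 2775 higher in pig and 701 to 2358 higher in cattle. The 7 interactions larger in pig became 27 with the DESeq2 Wald test, 37 without a filter, 16 with filterByExpr, 3 at 500 UMIs per barcode, 74 under the stricter rule, 37 without the highest Scrublet scores, 108 without members with germ cell markers, 61 at 10 rule UMIs, and 2 to 20 with 1 animal left out. The 6 larger in cattle became 10 with the DESeq2 Wald test, 10 under the stricter rule, 10 without members with germ cell markers, 11 at 10 rule UMIs, and 0 to 8 with 1 animal left out. The 0 was reached without cattle 2, where 617 genes in both directions had an unadjusted edgeR p under 0.05.

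JCHAIN rose to a log2 fold change of 13.18 against comparison cells without lymphocyte UMIs, which were chosen to lack JCHAIN, and MAEL fell to -10.21 without members with germ cell markers, of which it is one. The mean share of macrophages lay between 2.95% and 7.54% under the other settings and between 1.75% and 9.42% with 1 pig left out, against 6.80%, and the 1.75% was reached without pig 3. Depth limits pig 1 most, where 3 UMIs make 53.8 CPM, and genes with fewer than 3 UMIs there carry little information on the differences between pigs. The cause of these changes was not tested.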
